A study of Mus musculus with 16 samples.

Results

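Calcium entering a neuron binds calmodulin, and calcium-loaded calmodulin switches on kinases and a phosphatase that act on many of the same synapses. The 9 genes described here code for these enzymes: the 4 genes of calcium/calmodulin-dependent kinase II (CaMKII), the kinases Camk4 and Camk1g, and the calcineurin genes Ppp3ca, Ppp3cb and Ppp3r1. They were chosen by name, and all 9 of them were found among the 54532 genes of the tables and passed the filter on low counts.

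RNA was sequenced from parvalbumin (PV) interneurons, the fast-spiking inhibitory cells of the cortex, sorted from adult mice whose mean age over the study was 113.1 ± 11.6 days. PV-Cre mice carried a Cre-dependent transgene for either eGFP (PV-Cre;lsl-eGFP, the control, 9 libraries) or eGFP fused to the AMPA receptor subunit GluA2 (PV-Cre;lsl-eGFP-GluA2, 7 libraries), so both groups carry PV-Cre and express a green protein in cells with Cre activity. GluA2 makes AMPA receptors poorly permeable to calcium, and the stated purpose was to see what the loss of calcium-permeable AMPA receptors does. The cells were fixed in 4% paraformaldehyde for 15 min, triturated and sorted as nucleated green cells. The labels number the libraries of a group as biological replicates, and the labels give no batch, litter, sex or age for single libraries.

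CaMKII is a large holoenzyme built from subunits of 4 genes, and it can stay active after calcium has fallen because its subunits phosphorylate each other. In the forebrain its alpha form is abundant at excitatory synapses of principal cells, while the gamma form has been studied in the plasticity of excitatory inputs onto PV interneurons. Calcineurin pairs a catalytic A subunit with a calcium-binding B subunit and removes phosphate from channels, endocytic proteins and the NFAT transcription factors.

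Each library held 7454165 to 15462544 counts, and each of the 9 genes had between 143 (Camk1g) and 6767 (Camk2g) counts in a library. Gria2, which codes for GluA2 and whose counts include the transgene, was at 475.2 to 728.9 CPM (counts scaled to library totals) in the eGFP and 795.7 to 1109 CPM in the eGFP-GluA2 libraries. The difference came to 0.71 ± 0.16 on the log2 scale (SE), with an edgeR adjusted p of 1. Summed CPM of 8 PV interneuron markers ran from 5107 to 9325 in eGFP and from 5626 to 9700 in eGFP-GluA2 libraries, led by Gad1 (log2 fold change -0.04 ± 0.30) and Erbb4 (-0.06 ± 0.23). The libraries also differed in reads of olfactory and vomeronasal receptor genes, called the background here. It was low in 5 libraries (92.8 to 176.8 CPM; eGFP replicates 7 to 9, eGFP-GluA2 replicates 6 and 7), in the middle in 5 (724.4 to 1365 CPM; eGFP replicates 5 and 6, eGFP-GluA2 replicates 2, 4 and 5) and high in 6 (2035 to 4407 CPM; eGFP replicates 1 to 4, eGFP-GluA2 replicates 1 and 3). In sorted bulk cells, fewer cells of a type and less RNA per cell cannot be told apart.

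Among the CaMKII genes the order in TPM, a read density scaled for transcript length and library total, was led by Camk2g. Camk2g (ENSMUSG00000021820, chromosome 14: 20734875 to 20794088, minus strand) averaged 109 TPM over the 16 libraries, with a range of 69.7 to 189 TPM. It lay above each of the other 8 genes in every library. Camk2b (ENSMUSG00000057897, chromosome 11: 5969644 to 6066362, minus strand), the beta form, which binds actin, averaged 55.6 TPM. Camk2a (ENSMUSG00000024617, chromosome 18: 60925618 to 60988152, plus strand), the alpha form, averaged 25.4 TPM. Camk2d (ENSMUSG00000053819, chromosome 3: 126596302 to 126846326, plus strand), the delta form, which many tissues express, averaged 25.0 TPM. Camk2a exceeded Camk2d in 7 of 16 libraries, so these neighbours in the order did not separate.

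The calcineurin genes lay between Camk2g and Camk2a. Ppp3ca (ENSMUSG00000028161, chromosome 3: 136670124 to 136937727, plus strand), the alpha catalytic subunit, averaged 73.7 TPM and was above Ppp3r1 in 16 of 16 libraries. Ppp3r1 (ENSMUSG00000033953, chromosome 11: 17159263 to 17200375, plus strand), the regulatory B subunit, averaged 58.8 TPM. Ppp3cb (ENSMUSG00000021816, chromosome 14: 20499364 to 20546573, minus strand), the beta catalytic subunit, averaged 55.3 TPM. Ppp3r1, Camk2b and Ppp3cb did not separate: Ppp3r1 exceeded Camk2b in 6 of 16 libraries and Camk2b exceeded Ppp3cb in 9 of 16. The remaining kinases were far lower. Camk1g (ENSMUSG00000016179, chromosome 1: 193346346 to 193370298, minus strand), a membrane-anchored CaM kinase I, averaged 4.86 TPM. Camk4 (ENSMUSG00000038128, chromosome 18: 32934931 to 33191228, plus strand), a largely nuclear kinase that phosphorylates CREB, averaged 2.52 TPM and was below Camk1g in 15 of 16 libraries.

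The order depends on how length is handled. With the deposited counts divided by the summed exon length of each gene and scaled to the same total per library as TPM, Camk2g stayed first (144 in these units) but Ppp3r1 came next (108), ahead of Camk2b (104) and Ppp3ca (83.4), and Camk2d came last (11.1). Camk4 (26.2) was then above Camk1g (19.9) in 14 of 16 libraries, the reverse of their order in TPM. Camk2d has 22493 bases of annotated exon against 6401 for Camk2g and 7465 for Camk2a. Camk4 has 3259 and Camk1g 2759 bases, and the reason for their reversal was not tested, so their order is not settled here. TPM is used below for levels between genes. Some counts may also belong to overlapping genes, since the use of strand in counting is not given: Wdr92, on the same strand as Ppp3r1, had counts equal to 8.04% of those of Ppp3r1, and Gm37942, opposite Camk1g, had 4.84% of those of Camk1g. Camk2d overlaps 8 annotated genes whose counts sum to 15.6% of its own, the largest share being that of Gm43011, on the same strand, at 5.18%.

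**Figure D1:**
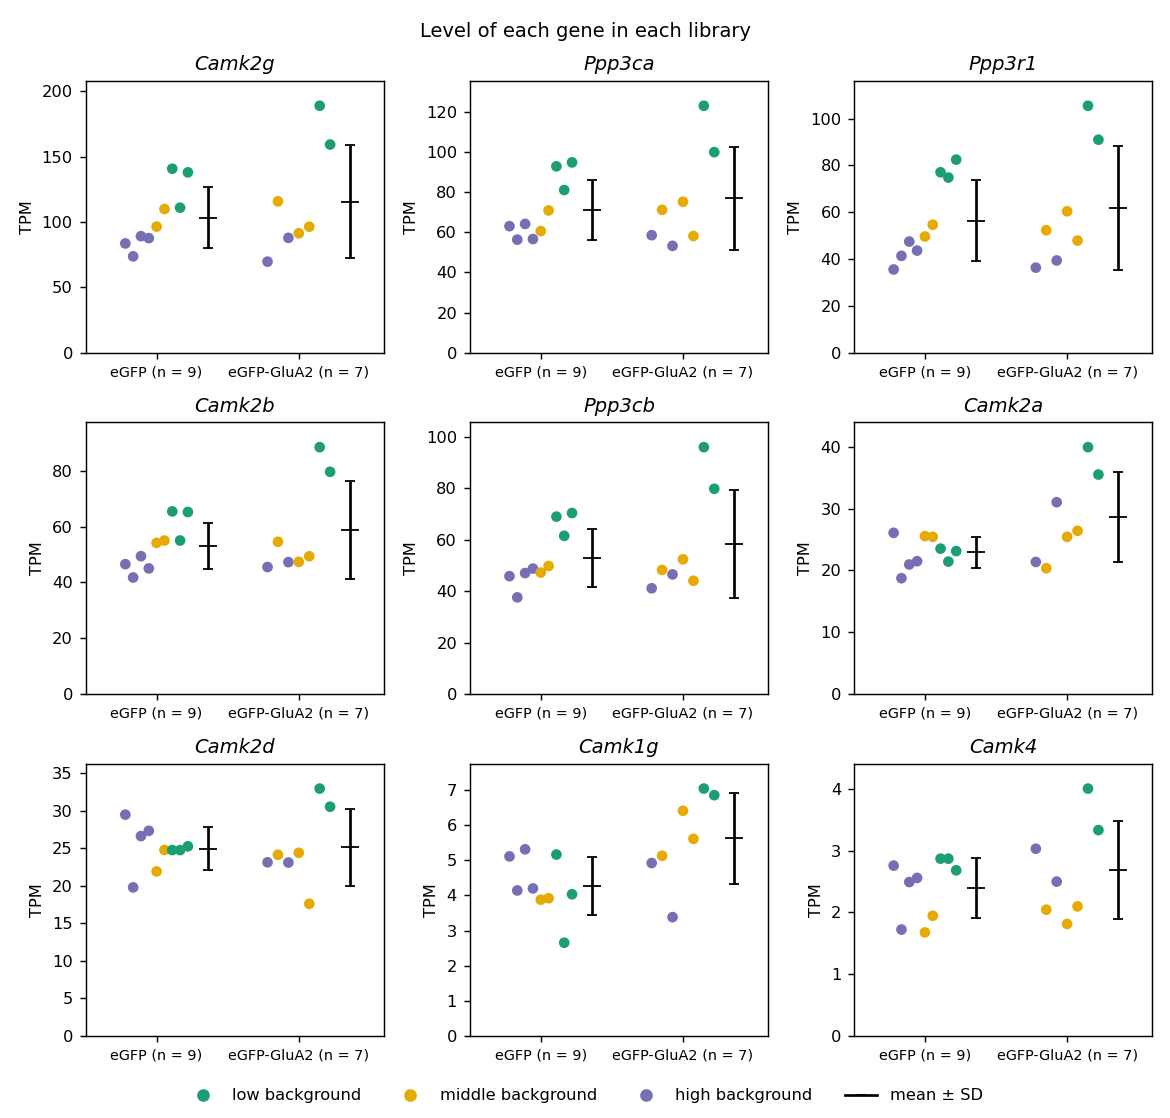
Level of each of the 9 genes in TPM (y axis, linear, from 0) in the 9 eGFP and 7 eGFP-GluA2 libraries; each point is a library, coloured by its background, and the bar is the mean ± SD of the group. The 2 low-background eGFP-GluA2 libraries are the highest of all in each of the 9 panels, and in the panels of Camk2g, Ppp3ca, Ppp3r1, Camk2b and Ppp3cb the low-background eGFP libraries are above the other eGFP libraries.

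The main question was whether any of these enzymes differed between PV cells with eGFP-GluA2 and with eGFP. In edgeR's quasi-likelihood test 0 of the 9 genes passed the threshold of 0.05 on the adjusted p, against 0.00381% of all 26257 genes tested (1 gene). Gria2, at 0.71 ± 0.16 and with no overlap of the groups in CPM, did not pass it either. At an unadjusted p under 0.05 there were also 0 of 9, against 1.12% of all genes tested. With the background level as a covariate again 0 of 9 passed, against 0.0343% of all genes. DESeq2 gave 0 of 9 as well, against 0.0154% of all genes, and so did limma on log2(TPM + 0.5), against 0.00762%. The log2 fold changes were above 0 for 6 of 9 genes, with a median of 0.02, while 45.5% of all genes tested (median -0.02) and 56.1% of those with a mean log2 CPM of at least 4 lay above 0. With the background covariate 5 of 9 were above 0, against 53.1% of all and 50.3% of these abundant genes. With the background tiers as a block 3 of 9 were above 0, against 43.3% and 25.9%.

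The intervals were wide against the estimates. For Camk2g the log2 fold change of eGFP-GluA2 over eGFP was 0.05 ± 0.24 (SE), with a 95% interval of -0.47 to 0.56. For Camk2b it was 0.02 ± 0.21, and for Camk2d it was -0.08 ± 0.13, with an interval of -0.34 to 0.19. The calcineurin genes had values of 0.02 ± 0.25 (Ppp3ca), -0.04 ± 0.25 (Ppp3cb) and -0.05 ± 0.29 (Ppp3r1). The interval of Ppp3r1, -0.66 to 0.57, was the widest of the 9. Camk4 had 0.04 ± 0.16. Scaling by library totals instead of TMM factors, an alternative added after the data were seen, narrowed most intervals: that of Camk2b became -0.14 to 0.19 and that of Ppp3ca -0.24 to 0.28. Each of these adjusted p was 1 in edgeR with TMM scaling and 0.9999 with library totals.

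**Figure D2:**
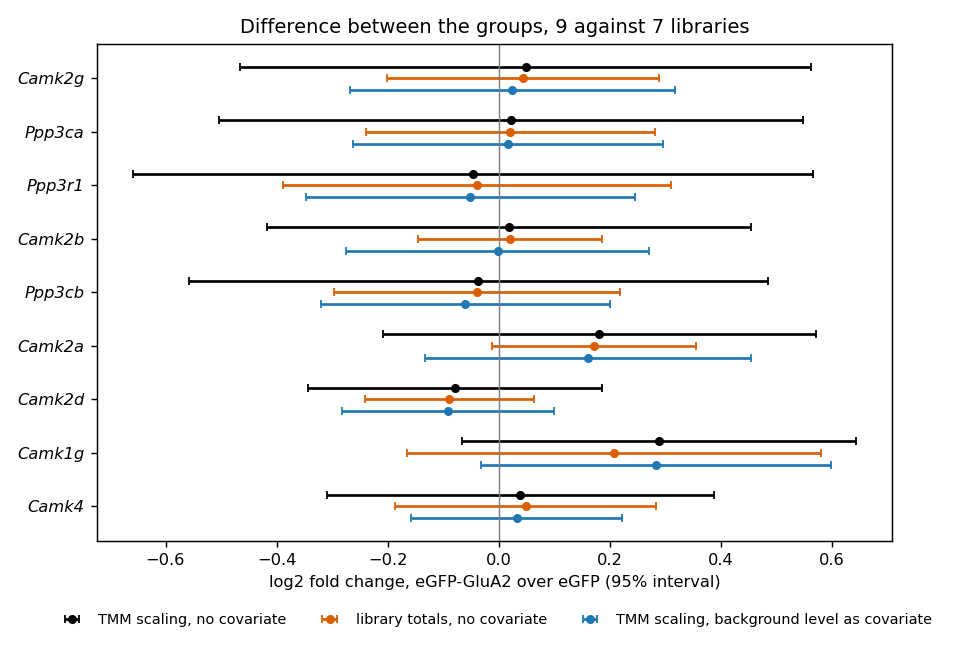
Log2 fold change of eGFP-GluA2 over eGFP (x axis) for each gene (y axis), with 95% intervals, from edgeR with TMM scaling (black), with library totals (orange) and with TMM scaling and the background level as a covariate (blue). All 27 intervals include 0; Camk1g and Camk2a lie furthest to the right, at 0.29 and 0.18 in the TMM fit.

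Camk1g had the largest estimated difference of the 9. In TPM it ran from 2.65 (median 4.14) to 5.32 in eGFP and from 3.38 (median 5.61) to 7.05 in eGFP-GluA2 libraries. In eGFP-GluA2 replicates 4, 5, 6 and 7 it was 6.42, 5.61, 7.05 and 6.86 TPM, above every eGFP library, while replicates 1, 2 and 3 (4.92, 5.13 and 3.38) lay within the eGFP range. The group means were 5.63 ± 1.29 TPM (SD, n = 7) and 4.27 ± 0.84 TPM (SD, n = 9). The exact two-sided permutation test on log2(TPM + 0.5) gave p = 0.0333 over all assignments and p = 0.0473 within background tiers, neither adjusted for the 9 genes looked at. On the deposited counts the log2 fold change was 0.29 ± 0.17 (95% interval -0.07 to 0.64; edgeR adjusted p = 1). The exact permutation test on log2 CPM gave p = 0.163 over all assignments and p = 0.255 within background tiers. Within tiers the difference in log2 CPM was 0.42 in the low-background and 0.50 in the middle, but -0.31 in the high-background libraries. Leaving out single libraries moved the exact permutation p on TPM between 0.0036 (without eGFP-GluA2 replicate 3) and 0.0755 (without eGFP-GluA2 replicate 6). Without both low-background eGFP-GluA2 libraries the mean was 5.09 TPM and the exact permutation p was 0.176.

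Camk2a followed, and it too was high in TPM in the same pair of libraries. It ran from 18.7 (median 23.1) to 26.1 TPM in eGFP and from 20.3 (median 26.4) to 39.9 TPM in eGFP-GluA2 libraries. Replicates 6 and 7 of eGFP-GluA2 were at 39.9 and 35.5 TPM and replicate 3 at 31.0, while replicates 1, 2 and 4 (21.4, 20.3 and 25.4) lay within the eGFP range and replicate 5 (26.4) just above it. The means of 28.6 ± 7.26 TPM (SD, n = 7) and 22.9 ± 2.48 TPM (SD, n = 9) gave an exact permutation p of 0.0511. Leaving out single libraries moved this exact permutation p between 0.0112 (without eGFP-GluA2 replicate 2) and 0.124 (without eGFP-GluA2 replicate 6). Without replicates 6 and 7 the eGFP-GluA2 mean was 24.9 TPM, with an exact permutation p of 0.323. On counts the log2 fold change was 0.18 ± 0.18 (95% interval -0.21 to 0.57), and 0.17 ± 0.087 with library totals (interval -0.01 to 0.36). The exact permutation test of Camk2a on log2 CPM gave p = 0.336 over all assignments and p = 0.547 within background tiers. Its difference in log2 CPM was 0.25 in the low-background and 0.09 in the high-background, but -0.14 in the middle libraries.

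In those 2 libraries most abundant genes had high TPM, not these members alone. Against the low-background eGFP libraries, log2(TPM + 0.5) in eGFP-GluA2 replicates 6 and 7 was higher by a median of 0.41 over the 8594 tested genes with a mean log2 CPM of at least 4, and 98.9% of these genes were higher. Ppp3ca (0.31), Ppp3r1 (0.33), Camk4 (0.33), Camk2d (0.34), Ppp3cb (0.39), Camk2g (0.42) and Camk2b (0.44) lay near this median, and Camk2a (0.72) and Camk1g (0.78) above it. Camk4 averaged 2.69 ± 0.80 TPM in eGFP-GluA2 (SD, n = 7) and 2.40 ± 0.48 TPM in eGFP libraries (SD, n = 9), and its exact permutation p on log2(TPM + 0.5) was 0.438 over all assignments and 0.0207 within tiers, where that on log2 CPM was 0.645. For Camk2g the 2 libraries had 189 and 159 TPM, where the low-background eGFP libraries had 141, 111 and 138.

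Because Camk2a is abundant in excitatory neurons, it was set beside the markers of these cells. Of 12 excitatory markers, 10 had log2 fold changes above 0 (median 0.26), 0 passed, and 2 had an unadjusted p under 0.05. Slc17a7, the vesicular glutamate transporter of cortical excitatory neurons, was at 9.57 ± 3.89 TPM in eGFP-GluA2 and 6.14 ± 1.69 TPM in eGFP libraries (SD), with a log2 fold change of 0.58 ± 0.22. Sv2b, a synaptic vesicle protein, had 0.40 ± 0.17. Summed CPM of the 12 ran from 280.8 to 356.6 in eGFP-GluA2 and from 233.1 to 347.8 in eGFP libraries, and most of it came from Cux2 (7.57 in mean log2 CPM). None of the 12 was at 0 in any library, while Neurod6 and Neurod1 were near the floor at mean log2 CPM of 0.72 and 0.24. The part of these cells in the Camk2a values was not tested. Of the markers of other interneurons, astrocytes, oligodendrocytes, microglia and endothelial cells, 4 of 6, 1 of 5, 4 of 4, 3 of 4 and 1 of 3 were above 0, and 0 passed. Lamp5, a marker of other interneurons, had an unadjusted p of 0.0020 in edgeR (log2 fold change 0.51 ± 0.14, adjusted p = 1), and it was the only one of these under 0.05. In log2 CPM with TMM scaling 8 of the 12 markers were lower in low- than in high-background libraries. With their mean log2 CPM as a covariate, all 9 genes had log2 fold changes above 0, from 0.11 ± 0.08 for Camk2d over 0.40 ± 0.16 for Camk2a to 0.49 ± 0.17 for Ppp3r1. In this edgeR fit 0 of 9 passed (lowest adjusted p = 0.092), against 0.019% of all genes, and 7 of 9 had an unadjusted p under 0.05, against 40.6% of all genes. Of the abundant genes 92.3% were above 0 in it (median 0.25).

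In TPM the share of each CaMKII gene differed between the groups by less than its SD within them. Camk2g held 50.1% ± 3.47 of the summed CaMKII TPM in eGFP (SD, n = 9) and 49.9% ± 3.91 in eGFP-GluA2 libraries (SD, n = 7). Camk2b held 26.0% ± 0.86 and 25.9% ± 1.22. Camk2d held 12.5% ± 2.20 and 11.4% ± 1.95, and Camk2a 11.4% ± 1.64 and 12.8% ± 2.21. For Camk2a, 1 of 7 eGFP-GluA2 libraries (replicate 3, 16.4%) lay above every eGFP library, where the highest was 14.0%. The shares of a library add up to 100% and so depend on each other, and they were not tested. By counts per exon length the shares were 44.9% and 44.4% for Camk2g and 18.4% and 20.0% for Camk2a, and they were 33.01% ± 0.57 and 32.29% ± 1.25 for Camk2b, a difference above the SD of the eGFP libraries. Within calcineurin A, Ppp3ca held 57.3% ± 1.73 in eGFP and 57.0% ± 2.21 in eGFP-GluA2 libraries by TPM. By counts per exon length the direction turned, with 64.9% ± 1.03 and 65.9% ± 1.34, and the highest eGFP value was exceeded in 3 of the 7 eGFP-GluA2 libraries.

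**Figure D3:**
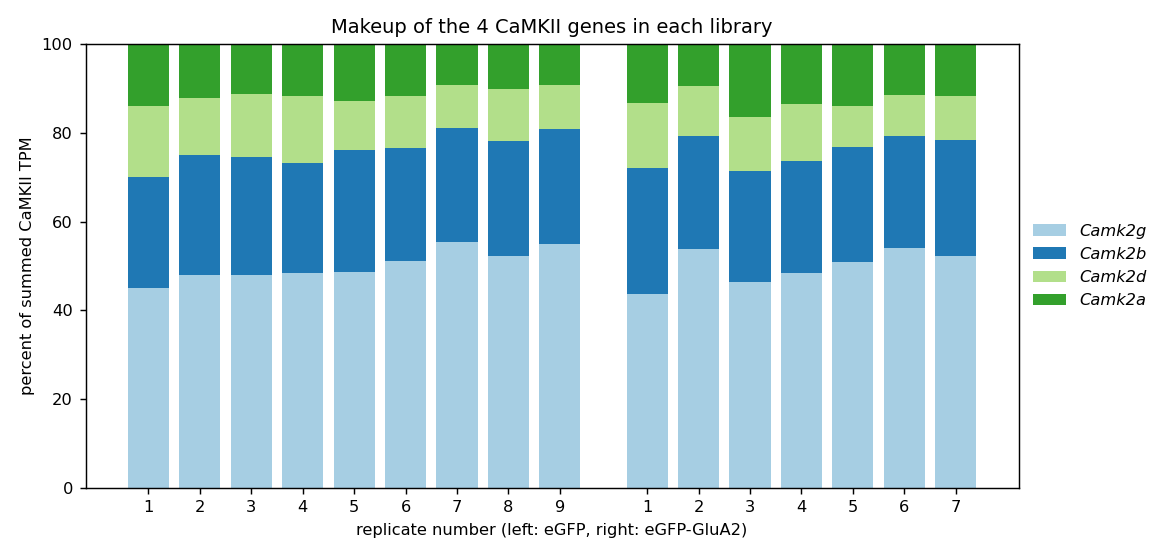
Share of each CaMKII gene in the summed TPM of the 4 genes (y axis, percent) in every library, by replicate number, eGFP on the left and eGFP-GluA2 on the right. Camk2g takes between 43.6% and 55.3% of each bar, and the differences between libraries of a group exceed those between the group means.

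The 9 genes also differed along the background, and by library totals not in the same direction. In CPM by library totals Ppp3r1 was at 170 ± 11.9 in the low-background (SD, n = 5), 133 ± 12.9 in the middle (n = 5) and 101 ± 12.4 in the high-background libraries (n = 6). Ppp3ca had the same order, with 384 ± 15.8, 321 ± 28.6 and 262 ± 20.8 CPM, and so had Camk2g, with 412 ± 23.2, 370 ± 23.1 and 292 ± 27.3 CPM. Camk1g went the other way, at 17.7 ± 4.66, 22.8 ± 5.36 and 23.9 ± 4.35 CPM. Camk2a was at 168 ± 23.2, 191 ± 14.2 and 165 ± 24.4 CPM and Camk2d at 98.0 ± 5.25, 89.1 ± 8.48 and 104 ± 6.43 CPM, with no common direction. Markers of other cells moved with the tiers as well. From low over middle to high background the median summed CPM was 25.5, 28.6 and 54.1 for 5 astrocyte markers, 11.5, 14.0 and 28.7 for 4 microglia markers, 5.59, 12.7 and 34.1 for 3 endothelial markers and 9269, 7688 and 5908 for the 8 PV interneuron markers. Their part in the differences of the 9 genes was not tested. These are descriptions, since the tiers were set from the libraries' own background.

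The size of these differences depends on scaling, because TMM factors followed the tiers. Low minus high background, Ppp3r1 differed by 0.76 in log2 CPM by library totals and by 1.27 with TMM scaling. Ppp3cb differed by 0.56 and 1.07, Ppp3ca by 0.55 and 1.07, Camk2g by 0.50 and 1.02 and Camk2b by 0.29 and 0.81. Camk1g differed by -0.46 and 0.05, Camk2d by -0.08 and 0.43 and Camk2a by 0.02 and 0.54. The median over abundant genes was 0.10 by library totals and 0.61 with TMM scaling, a shift of the whole scale that leaves the rank of a gene as it is. Among the abundant genes the percentile of the difference was 97.5 for Ppp3r1 in CPM and 97.1 in TPM, and 85.9 and 86.7 for Camk2g. It was 89.1 in CPM and 80.4 in TPM for Ppp3ca, 55.8 and 40.9 for Camk4 and 7.12 and 26.4 for Camk1g, so these places depend on the table used. Pvalb, which codes for parvalbumin, differed by 0.99 by library totals. In TPM the share of Camk2g in CaMKII was 53.7%, 50.6% and 46.5% from low to high background, and that of Camk2a 10.3%, 12.3% and 13.2%.

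**Figure D4:**
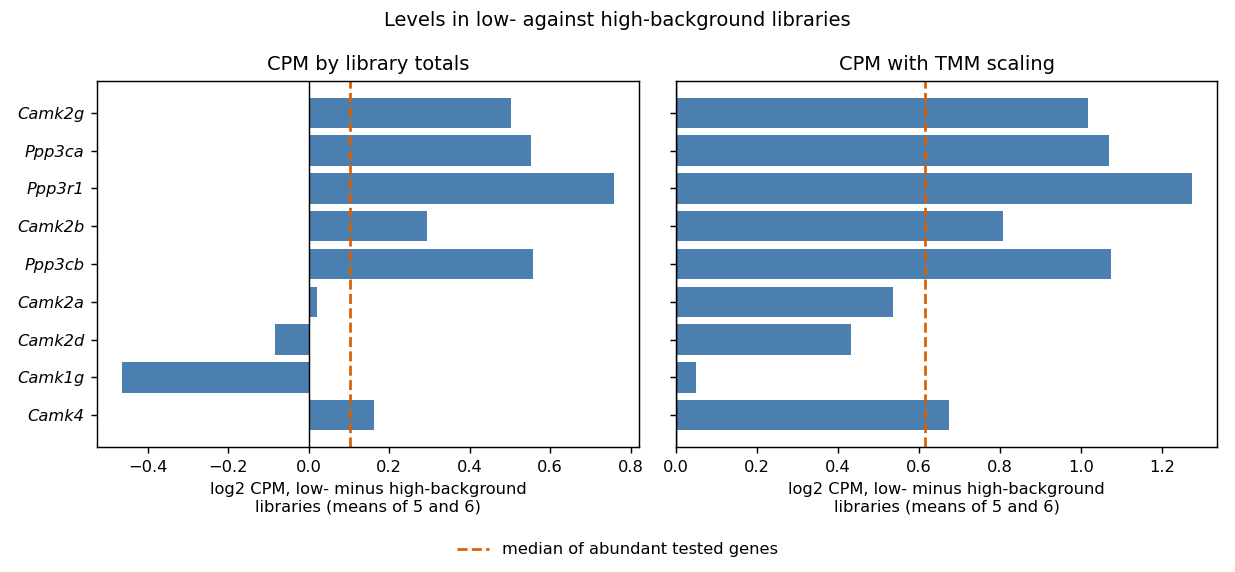
Difference in mean log2 CPM (x axis) between the 5 low-background and the 6 high-background libraries for each gene, by library totals (left) and with TMM scaling (right); the dashed line is the median of the abundant tested genes (0.10 and 0.61). The panels differ by a shift common to all genes; calcineurin genes, Camk2g, Camk2b and Camk4 are to the right of the line, Camk2a, Camk2d and Camk1g to its left, and in TPM Camk4 (0.28) is below the median of 0.38.

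The members were next compared for shared variation. In log2 CPM, after the means of background tier and of group were taken out, Pearson's r over the 16 libraries was 0.963 for Ppp3cb and Ppp3r1, 0.908 for Ppp3ca and Ppp3cb and 0.902 for Ppp3ca and Ppp3r1. Camk2b and Camk2g had 0.912. The lowest values were -0.04 for Camk2a and Camk4 and 0.03 for Camk4 and Camk1g. These are descriptions over 16 points that share library depth and TMM scaling, and genes outside the set reached higher values. One library stood apart in scaling: eGFP replicate 2 had a TMM factor of 0.978, where the other high-background libraries had 1.23 to 1.40. Its log2 CPM was 6.92 for Ppp3r1, 7.09 for Ppp3cb and 8.55 for Camk2b. The other high-background libraries reached at most 6.52, 6.77 and 8.11. The weight of this library in the r values was not tested. Among 8258 named protein-coding genes of mean log2 CPM of at least 4, the closest to Ppp3r1 were Zfp91 (0.992) and Sept7 (0.976), to Ppp3cb Srpk2 (0.985) and Senp5 (0.984), and to Ppp3ca Ncoa4 (0.973) and Hnrnpk (0.972). Closest to Camk2b were Letm1 (0.982) and Iqsec1 (0.978), to Camk2g Apba1 (0.981) and Tcf20 (0.980), to Camk2d Igip (0.972) and Smarca1 (0.952), and to Camk2a Mtus2 (0.955) and Nr1d1 (0.933). Camk4 (Rprd1a 0.904, Ikbkg 0.883) and Camk1g (Slit1 0.864, Fosl2 0.837) had lower best values.

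**Figure D5:**
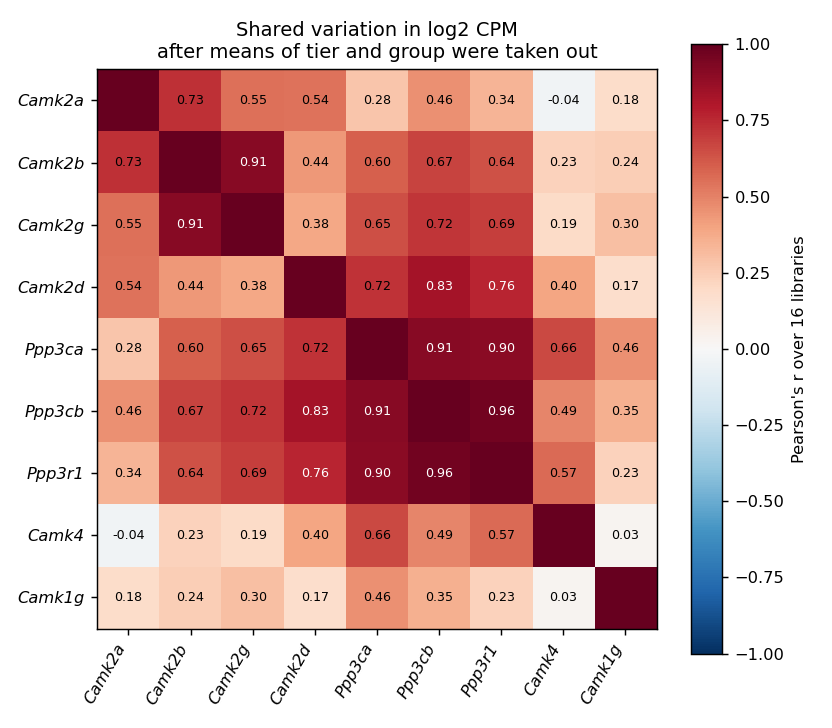
Pearson's r between pairs of the 9 genes over 16 libraries (colour scale from -1 to 1), in log2 CPM after the means of background tier and group were taken out. The 3 calcineurin genes form a block of 0.90 to 0.96, Camk2b and Camk2g a pair of 0.91, and the row of Camk1g stays at 0.46 or below.

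The sequences before the starts of Ppp3cb and Ppp3r1 are shown because these genes, on chromosomes 14 and 11, had the highest r of all 36 pairs. They are RefSeq sequence on GRCm38.p6, up to 250 bases before the RefSeq start, 5′ to 3′ on the gene's strand, for chr14:20546574-20546823 (minus strand) and chr11:17159048-17159262 (plus strand). The second stops 35 bases before the RefSeq start, where the first annotated exon begins. Capitals mark the GC box GGGCGG and the CRE core TGACG, searched on both strands.
Ppp3cb: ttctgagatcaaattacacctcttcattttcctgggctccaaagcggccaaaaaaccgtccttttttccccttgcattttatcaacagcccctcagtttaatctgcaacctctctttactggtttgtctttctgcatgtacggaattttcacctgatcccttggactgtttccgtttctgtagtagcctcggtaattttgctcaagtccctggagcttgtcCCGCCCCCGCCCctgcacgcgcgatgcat
Ppp3r1: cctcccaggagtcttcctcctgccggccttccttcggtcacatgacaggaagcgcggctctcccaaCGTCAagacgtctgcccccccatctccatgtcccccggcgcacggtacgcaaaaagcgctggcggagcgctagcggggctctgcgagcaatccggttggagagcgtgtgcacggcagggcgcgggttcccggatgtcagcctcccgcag
Windows of 250 bases were matched for 5 of the 9 genes. GC content was 48.4% for Ppp3cb and 70.8% for Ppp3r1, against a median of 52.4% over 32851 windows. In its full window Ppp3r1 held 4 GC boxes, some of which overlap, and 1 CRE core. The part printed above held 0 GC boxes. All 4 lie within the 35 bases left out, which start at the first annotated exon. Ppp3cb held 2 GC boxes, which adjoin, and 0 CRE cores. GC boxes were in 32.7% and CRE cores in 17.8% of all windows. Camk2b and Camk2d held 3 GC boxes each and Camk1g 0. The windows of Camk2b (chr11:6065749-6065998) and Camk2d (chr3:126596701-126596950) lie wholly inside the annotated genes, and that of Camk1g overlaps its gene in part. CCAAT and TATAAA, found in 33.8% and 12.4% of windows, were in none of the 5. Such matches describe letters and say nothing of binding.

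Genes around these enzymes were read from lists. None of the lists given here had a member past the threshold in edgeR, and every listed gene named below had an adjusted p of 1. In a list of 4 genes for calmodulin-binding buffers and related proteins, 3 were above 0 (median 0.19). Pcp4 had a log2 fold change of 0.43 ± 0.32 (SE) and Nrgn, neurogranin, which is abundant in excitatory neurons, 0.32 ± 0.24. Of 7 other calmodulin-dependent kinases and their activators, 6 were above 0 (median 0.01). Camkk1 and Camkk2, which phosphorylate and activate Camk4 and Camk1g, had 0.15 ± 0.16 and 0.06 ± 0.17. Of 3 CaMKII inhibitors and kinase-like proteins, 2 were above 0, with Camkv at 0.13 ± 0.15 and the CaMKII inhibitor Camk2n2 at 0.11 ± 0.28.

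On the phosphatase side, 5 of 8 other calcineurin subunits and regulators were above 0 (median 0.00). Cabin1, a calcineurin-binding inhibitor, had 0.08 ± 0.09. Rcan1, a calcineurin inhibitor that calcineurin signalling itself induces, had 0.07 ± 0.16. Of 10 calcineurin targets, 9 were above 0 (median 0.05), with Ppp1r1a at 0.11 ± 0.13 and the transcription factor Nfatc2 at 0.19 ± 0.25. Of 10 CaM kinase targets, 6 were above 0 (median 0.03). Gria1, an AMPA receptor subunit that CaMKII phosphorylates, had 0.17 ± 0.21 and Hdac4, a histone deacetylase, 0.06 ± 0.13. The members' median was 0.02 and that of all genes tested -0.02.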

How the data were processed

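The data are 3 deposited tables of 16 libraries. The authors ran bcbio-nextgen 1.2.3 with STAR alignment to GRCm38, Sailfish quantification against Ensembl genes and DESeq2, per the labels and the series text. The deposited counts are whole, unnormalized reads per gene, with the counter not given in the sources used here. Deposited TPM values are scaled for length. The other table from the authors holds signal values (counts divided by size factors), log2 fold changes, a test score and p-values. Of its values, 100% were whole multiples of 1 read within 0.001, giving 10477517 to 17382059 recovered reads per library. The 2 count versions differ: recovered reads of the 9 genes were 76.0% (Camk1g) to 129% (Ppp3r1) of deposited counts. In the authors' deposited table the log2 fold change was 0.24 for Camk1g and 0.15 for Camk2a, with adjusted p of 1.00.

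Gene names and exons came from GENCODE M21 on GRCm38, and coordinates are 1-based. Groups followed the labels. The main test was edgeR 4.0.16 on deposited counts (TMM, filterByExpr, quasi-likelihood F test, Benjamini-Hochberg over 26257 genes, threshold 0.05). The filter removed 28275 genes and kept 99.2% of counts. Standard errors come from the F statistic. Log2 CPM used a prior count of 2. Single values were compared by exact permutation over 11440 assignments, or 1500 within background tiers. Background is measured as the summed CPM of autosomal receptor genes of the nose (1721 Olfr, Vmn1r and Vmn2r genes), with tiers split at 500 and 1500 CPM. On simulated data edgeR was run without and with the background covariate, and limma on log2 CPM, with outcomes not given here. The permutation tests, DESeq2 and limma on TPM were not run on them. P-values set a group difference against the spread between these libraries, which in the main test includes that between background tiers.

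The named genes are the 9 members, Gria2, Pvalb, the 2 of smallest p of each pathway list, the 2 most abundant markers of a discussed list with Slc17a7, and the 2 genes most like each member. Sv2b, Neurod6, Neurod1, Lamp5 and overlapping genes were named after their values were seen. The result of 1 pathway list is not reported here. Members and lists were chosen with earlier results of these data known. Alternatives used DESeq2 1.42.0, limma 3.58.1, other scalings and filters, covariates and left-out libraries.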

Additional observations from a re-analysis of the deposited data

Results flagged for a closer look

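The share of Camk2b in the summed CaMKII TPM stood apart in 1 library. It was 28.5% in eGFP-GluA2 replicate 1, where the other 6 eGFP-GluA2 libraries lay between 25.0% and 26.1%. Its gap to the nearest of them was 0.678 of the whole range of the group, above Dixon's 95% critical value of 0.568 for 7 samples. Of 46 groups of values examined in this way, 1 was singled out, and chance singles out about 1 in 20.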

How the results depend on the processing

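None of the 9 genes passed in any of the alternatives run, leaving out each library included. The number of all genes past the threshold, 1 in the test reported, was 8 with DESeq2, 2 with library totals, 2 and 3 in limma with pseudocounts of 0.5 and 0.1 TPM, 3 on recovered reads, 9 with the background level and 5 with the excitatory marker level as a covariate, 11 with the tiers as a block and 3 without the high-background libraries. The 6 genes above 0 became 3 with the tiers as a block, 2 without the high-background libraries and 2 to 8 without single libraries. All 9 were above 0 with the excitatory marker level as a covariate and with replicate numbers as a block. All but Camk2d were above 0 in limma on TPM and without the low-background libraries. The estimates closest to 0 changed sign. With the background level as a covariate Camk2b was at -0.0025. With the tiers as a block Camk2b was at -0.085, Camk2g at -0.088 and Ppp3ca at -0.093. Without the high-background libraries Camk2b was at -0.062, Camk2g at -0.023, Camk4 at -0.047 and Ppp3ca at -0.059. On recovered reads Ppp3ca was at -0.017. On TPM with both pseudocounts Ppp3cb was at 0.0945 and 0.0950 and Ppp3r1 at 0.0891 and 0.0895. With the excitatory marker level as a covariate Camk2d was at 0.11, Ppp3cb at 0.39 and Ppp3r1 at 0.49, and without the low-background libraries Ppp3cb was at 0.079 and Ppp3r1 at 0.15. The cause was not tested. Without single libraries the ranges were -0.052 to 0.11 for Camk2b, -0.029 to 0.17 for Camk2g, -0.024 to 0.14 for Camk4, -0.053 to 0.13 for Ppp3ca, -0.12 to 0.065 for Ppp3cb and -0.14 to 0.072 for Ppp3r1. Camk2a (0.08 to 0.40) and Camk1g (0.15 to 0.52) stayed above 0 in every alternative. The group differences of the shares moved by less than 1 SD in the alternatives run. Leaving aside single left-out libraries, those of Ppp3ca (by counts per exon length, or without the low- or the high-background libraries) and Camk2g (without the low-background libraries) changed sign.

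Replicate numbers are shared by the groups, but same-numbered libraries did not deviate together in every pair (correlations of -0.028 to 0.904), so the numbers were not taken to pair them. With a replicate block 7 genes and 0 of the 9 members passed, and Camk2d was at 0.0060, Ppp3cb at 0.13 and Ppp3r1 at 0.19. Depth limits Camk1g most, at 143 to 370 counts per library.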
